A study of Mus musculus with 9 samples.

Results

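Aminoacyl-tRNA synthetases are the enzymes that load each amino acid onto its transfer RNA, and their RNA levels were followed in mouse intestinal tract. The members were all genes of the deposited table whose symbol has the form of a synthetase symbol, that is a single amino acid letter followed by ars with or without a 1 or 2, together with Eprs, Farsa and Farsb. The rule found 37 of 55468 genes. It used names only and no measured value. Of the 37, 20 encode cytosolic enzymes, 2 of which (Gars and Kars) also supply the mitochondrial form, and 17 encode enzymes that work only in mitochondria.

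The study examined how diets lacking methionine, tryptophan and niacin act on the gut of mice that drink dextran sulfate sodium (DSS), which damages the colonic epithelium and serves as a model of inflammatory bowel disease. Total RNA was depleted of ribosomal RNA and sequenced in 9 conditions with 1 library each. At day 28 there were libraries from mice fed a diet deficient in methionine (1K), in tryptophan and niacin (2K) or in all 3 nutrients (3K), and from mice fed the normal diet (R). At day 33 there were libraries from mice that had eaten the same deficient diets up to day 28 and then the normal diet (1KR, 2KR and 3KR), and from mice kept on the normal diet throughout (RR). All 8 of these conditions had DSS in the drinking water from day 18. The remaining library (C) came from mice on normal feed without DSS at day 34. The sources used here do not give strain, age, sex, gut segment or the number of mice behind a library, and with 1 library per condition a difference between 2 libraries cannot be set against a spread between replicates.

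When an amino acid is scarce its transfer RNA stays uncharged, and uncharged transfer RNA activates the kinase GCN2 (gene symbol Eif2ak4), which phosphorylates the initiation factor eIF2. Translation as a whole then slows while the transcription factor ATF4 is made, and ATF4 together with C/EBP proteins binds the C/EBP-ATF response element of its targets, among them many genes of cytosolic synthetases. Several cytosolic synthetases are held in the multisynthetase complex with the scaffold proteins AIMP1, AIMP2 and EEF1E1, whereas the mitochondrial enzymes are encoded by other nuclear genes and charge the transfer RNAs of the mitochondrial genome. Tryptophan is charged by the products of Wars and Wars2 and methionine by those of Mars and Mars2, the cytosolic enzyme being named first in each pair.

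The core of the C/EBP-ATF response element, TGATGNAA, was searched on both strands of the RefSeq promoters (GRCm38.p6), each running from 250 bases before to 50 after an annotated transcription start. The table held promoters of 27 of the 37 members. The core was present in 5 of 13 cytosolic promoters (38.5%) and in 0 of 14 mitochondrial ones. Of all genes listed there, 27025 in number, 4.51% held it, as did 3.97% of 32851 promoters. The version with C at the free base, TGATGCAA, was present in 4 of the 13 cytosolic promoters (30.8%) and in 1.03% of all genes. The stretches around the matches are shown because they are the sequences that set these 5 cytosolic genes apart from the other members in the table. The matches are in capitals, and letters run 5′ to 3′ on the strand of the gene, so that TTGCATCA and TTTCATCA are the core read on the other strand:
Tars (chr15:11399629-11399713, minus strand): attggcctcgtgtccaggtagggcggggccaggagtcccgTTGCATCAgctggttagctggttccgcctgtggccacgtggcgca
Yars (chr4:129189866-129189932, plus strand): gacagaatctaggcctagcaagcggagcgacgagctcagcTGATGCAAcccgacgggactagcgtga
Gars (chr6:55037931-55038018, plus strand): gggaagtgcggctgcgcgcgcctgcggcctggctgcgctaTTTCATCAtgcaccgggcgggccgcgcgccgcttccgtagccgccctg
Aars (chr8:111033690-111033871, plus strand): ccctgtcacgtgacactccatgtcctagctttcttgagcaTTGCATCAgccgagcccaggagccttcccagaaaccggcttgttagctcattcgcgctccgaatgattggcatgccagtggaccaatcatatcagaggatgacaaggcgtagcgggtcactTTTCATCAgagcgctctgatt
Iars (chr13:49682097-49682159, plus strand): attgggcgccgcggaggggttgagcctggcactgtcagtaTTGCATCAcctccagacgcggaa
Tars encodes the threonyl enzyme, Yars the tyrosyl, Gars the glycyl, Aars the alanyl and Iars the isoleucyl enzyme. Counted from the annotated start, the first base of the match lay at -15 in Tars, -30 in Gars, 4 in Yars and 8 in Iars. Aars held 1 match at -112 and another at 10. The promoter of Mars held none in this window. A match of letters is a description and does not show binding.

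**Figure D1:**
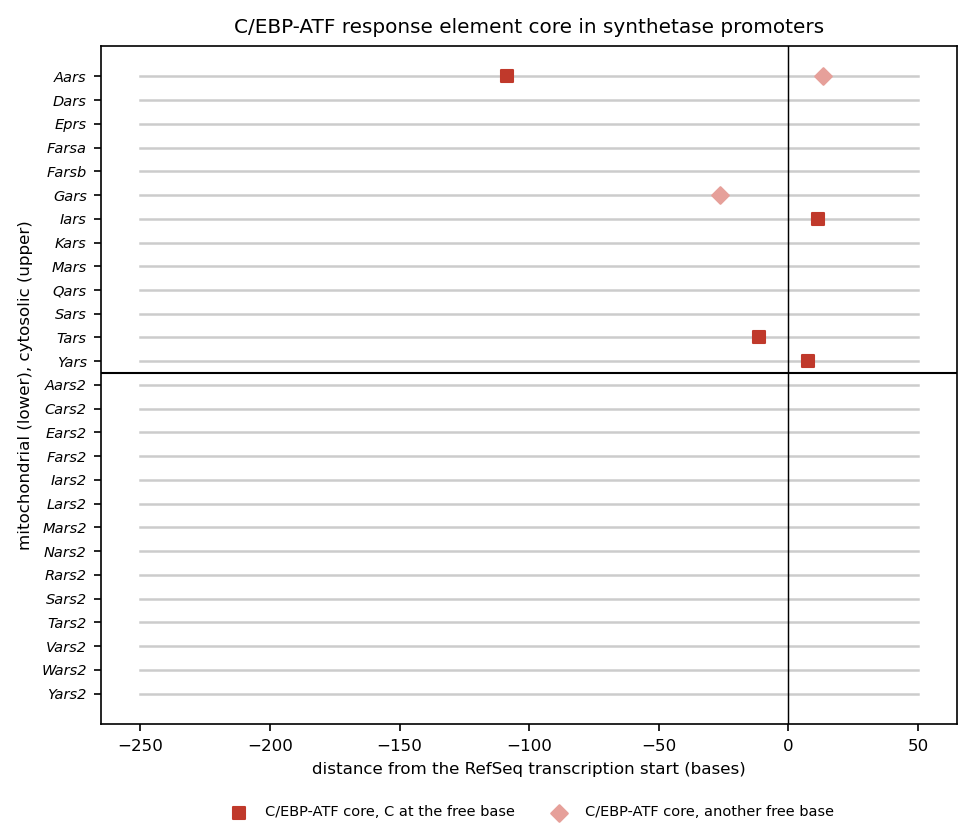
Positions of the C/EBP-ATF core in the 27 RefSeq promoters of synthetase genes, drawn as grey lines from 250 bases before to 50 bases after the transcription start; squares mark the core with C at the free base and diamonds the core with another base. All 6 matches lie in the 5 cytosolic promoters of Aars, Gars, Iars, Tars and Yars, and none in a mitochondrial promoter.

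All levels are FPKM, that is sequenced fragments per kilobase of a transcript and per a fixed number of mapped fragments. Differences are given as log2(FPKM + 0.5) in the first-named library minus the same in the second, and a gene entered a comparison if 1 or both libraries reached 1 FPKM. Counts are of genes at least 1.5-fold or at least 2-fold apart on that scale. They describe a pair of libraries and carry no test. The estimated depth was between 14.2 M and 31.1 M fragments, lowest in 3KR. Dividing the values by median-of-ratios factors moved the median difference of all genes by more than 0.1 in several comparisons, and scaled values are given beside the results they move most.

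Libraries 2K and 3K also stood apart in their tissue makeup. Digestive enzyme genes of pancreatic acinar cells made up 7.05% of all FPKM in 2K and 9.49% in 3K, with 23 of 23 list genes at 1 FPKM or more, against at most 0.038% in every other library, where 7 to 14 were. Liver genes made up 5.55% in 2K, against 0.0146% to 0.0859% in the other libraries, and stomach genes 2.35% in 2K, against at most 0.00881% in the others. Of the defining markers, Cpa1 was listed at 0 in C and Tff1 at 0 in 1K, 3K, R and RR. Acinar cells are secretory cells with intense protein synthesis. The intestinal lists of enterocyte and of goblet and Paneth genes were detected in every library, with goblet and Paneth genes at 0.469% in 2K and 0.814% in 3K, against 1.94% to 4.12% in the others. The part of these other tissues in the synthetase levels of 2K and 3K was not tested. In such bulk RNA, fewer cells of a type and less RNA per cell cannot be told apart.

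All 37 members were detected in every library. The cytosolic enzymes had a median level between 19.4 FPKM (C) and 26.6 FPKM (2KR), and the mitochondrial enzymes between 4.12 FPKM (3K) and 11.4 FPKM (C). Qars, the glutaminyl enzyme, ranged from 119 FPKM in 2K to 198 FPKM in R. It was the highest member in every library except 2K, where Vars had 120 FPKM. Hars, the histidyl enzyme, was among the lowest cytosolic members at 8.06 FPKM in C to 11.1 FPKM in 3KR. Mars2 and Aars2, the mitochondrial methionyl and alanyl enzymes, were among the lowest of the family, with 0.993 to 1.95 FPKM and 1.53 to 2.94 FPKM. The family varied little among libraries: the ratio of the highest to the lowest library had a median of 1.73 for cytosolic and 1.93 for mitochondrial members, against 2.26 for the 10265 genes averaging 5 FPKM or more and listed at 0 in no library. It reached 2 in 8 of 20 cytosolic members (40%) and in 7 of 17 mitochondrial members (41.2%), against 60.8% of those genes.

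Among cytosolic members the highest value fell in 2KR for 7 genes and in 3K for 6. The lowest fell in 2K for 7 and in C for 4. Among the wide ranges were those of the mitochondrial Lars2 (4.65-fold) and Cars2 (3.52-fold) and the cytosolic Vars (3.26-fold).

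**Figure D2:**
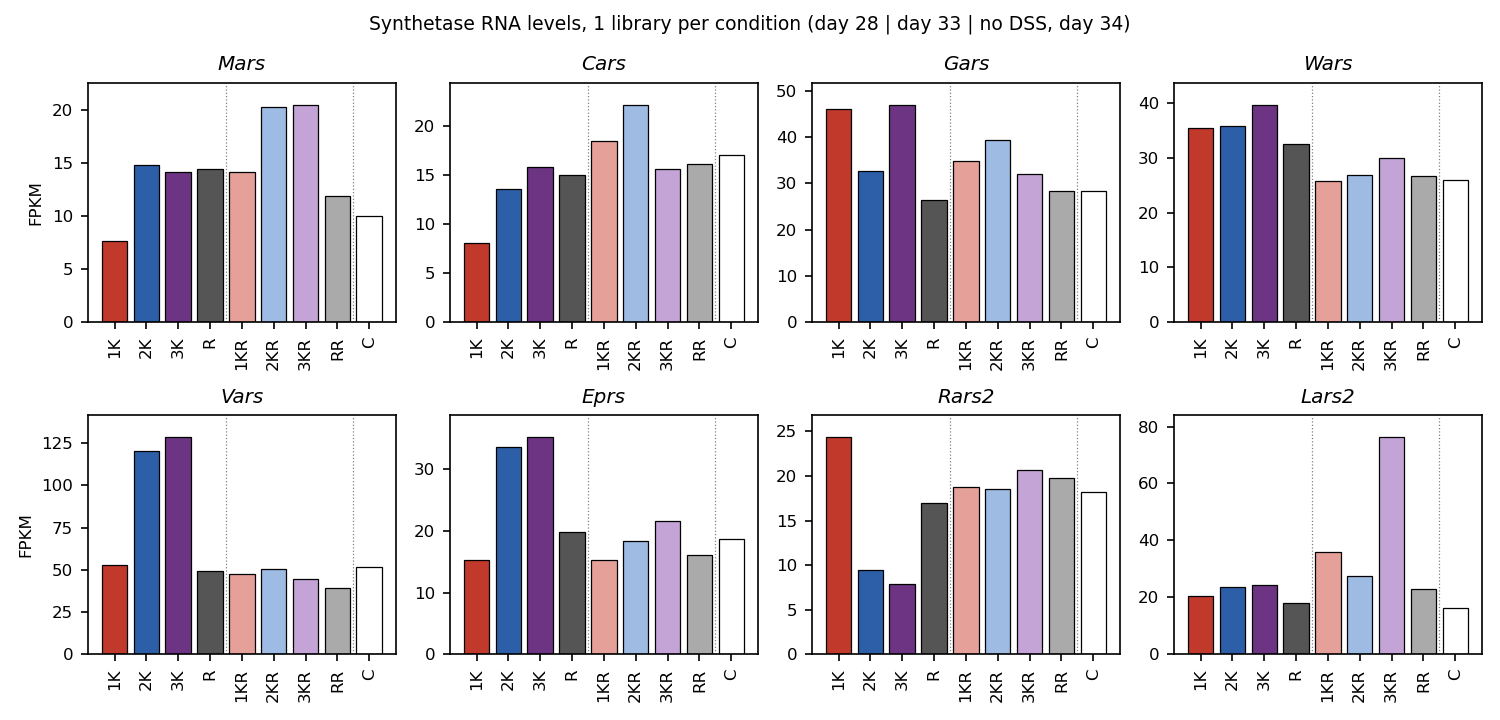
FPKM of 8 synthetases in each of the 9 libraries (1 bar per library, no error because each condition has 1 library), with day 28, day 33 and the library without DSS separated by dotted lines. Mars and Cars are lowest in 1K, Vars and Eprs are highest in 2K and 3K where Rars2 is lowest, and Lars2 is highest in 3KR.

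The enzyme for the missing amino acid was lower in the methionine-deficient library. Mars (chr10:127296221-127311786, minus strand, GRCm38), the cytosolic methionyl enzyme and a member of the multisynthetase complex, had 7.63 FPKM in 1K, against 14.5 FPKM in R, a difference of -0.88. The 3K library, which lacked methionine too, had 14.2 FPKM, and 2K had 14.8 FPKM. So 1K alone among the day 28 libraries was low, and it was also below the 10.04 FPKM of C. After the return to the normal diet Mars had 14.1 FPKM in 1KR, 20.3 in 2KR and 20.5 in 3KR, against 11.9 in RR.

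The last exon of Mars overlaps the 3′ end of Ddit3, which encodes the stress factor CHOP, on the opposite strand, and the shared exons cover 68 bases in GENCODE M21. Ddit3 had 12.7 FPKM in 1K and 10.49 FPKM in R, so it did not follow Mars. The mitochondrial enzyme Mars2 (chr1:55237177-55248470) had 1.38 FPKM in 1K and 1.49 FPKM in R, a difference of -0.08. Its level of 0.993 FPKM in 2K corresponds to about 261 fragments.

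Across the family, 1K differed from R in both directions. With a threshold of 1.5-fold, 1 cytosolic member was higher (of all genes kept, 17.5% were) and 2 cytosolic and 1 mitochondrial member were lower (18% of all genes). Cars, the cysteinyl enzyme (chr7:143557230-143600090), had 8.09 FPKM in 1K, against 15.0 FPKM in R, a difference of -0.85, and its lowest value of all 9 libraries was that in 1K. The 3K library, which lacked methionine too, had 15.8 FPKM of Cars, a difference of 0.07 from R. Cysteine is made from methionine in the body through transsulfuration. A link between methionine supply and the Cars level was not tested. Ears2, the mitochondrial glutamyl enzyme, had 1.77 FPKM in 1K and 3.27 FPKM in R, a difference of -0.73. Gars (chr6:55038007-55079500), the glycyl enzyme of both compartments, ran the other way, with 46.0 FPKM in 1K, against 26.3 FPKM in R, a difference of 0.80.

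The medians were -0.05 for cytosolic and -0.00 for mitochondrial members, beside 0.03 for all genes. After scaling they were -0.25 and -0.18 beside -0.15. Then 4 cytosolic and 4 mitochondrial members were at least 1.5-fold lower, as were 4353 of 18165 genes. The cell cycle list was lower in 1K for 14 of 15 genes (47.8% of all genes were), with a median of -0.91, and the enterocyte list higher for 12 of 12 (52.2%), with a median of 1.06. The part of cell composition in the 1K values was not tested.

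The cytosolic tryptophanyl enzyme was lower in the day 33 libraries than in the day 28 libraries. Wars (chr12:108860030-108894174, minus strand), known in human cells as an interferon-induced gene, had 35.5 FPKM in 1K, 35.8 in 2K and 39.7 in 3K, against 32.6 in R. At day 33 it had 25.7 FPKM in 1KR, 26.8 in 2KR and 29.9 in 3KR, against 26.7 in RR, and C had 25.9 FPKM. All 4 day 33 libraries were therefore below all 4 day 28 libraries, before and after scaling, as were 4.89% of 17577 genes. Against the normal-diet library of the same day the differences were small, 0.13 for 2K, 0.28 for 3K, 0.01 for 2KR and 0.16 for 3KR. Between the normal-diet libraries of both days, RR against R, the difference was -0.28, of the size of that for 3K. The refed libraries had also changed diet at day 28, so day and change of diet cannot be told apart in them.

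Wars2 (chr3:99141068-99239186), the mitochondrial tryptophanyl enzyme, was lower in every deficient library of day 28 than in R. It had 1.67 FPKM in 2K and 1.70 FPKM in 3K, against 2.94 FPKM in R, differences of -0.67 and -0.65. In 1K, which did not lack tryptophan, it had 2.04 FPKM, a difference of -0.43. After scaling the differences were -0.71 in 2K, -0.66 in 3K and -0.60 in 1K, all at least 1.5-fold. With a pseudocount of 1, those of 2K and 3K were -0.56 and -0.55, under 1.5-fold. The refed libraries held 3.75 FPKM in 1KR, 3.19 in 2KR and 3.76 in 3KR, against 3.78 in RR, and C had 3.44 FPKM.

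The largest differences of cytosolic enzymes were in the libraries deficient in tryptophan and niacin. Vars (chr17:35000987-35016322), the valyl enzyme, had 120 FPKM in 2K and 129 FPKM in 3K, against 49.1 FPKM in R, differences of 1.29 and 1.38. The other 6 libraries lay between 39.5 FPKM (RR) and 53.1 FPKM (1K), so 2K and 3K alone were high. Eprs (chr1:185363044-185428360), the enzyme for glutamate and proline, had 33.6 FPKM in 2K and 35.2 FPKM in 3K, against 19.9 FPKM in R, differences of 0.74 and 0.81. Both libraries again stood above the other 7, which lay between 15.2 FPKM (1K) and 21.6 FPKM (3KR). Aars had 22.4 FPKM in 2K and 15.0 FPKM in 3K, against 12.5 FPKM in R, so it was at least 1.5-fold higher in 2K alone, by 0.82. Gars had 32.7 FPKM in 2K and 47.0 FPKM in 3K, against 26.3 FPKM in R, so it was at least 1.5-fold higher in 3K, by 0.83, and not in 2K.

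Other cytosolic enzymes were lower in 2K. Iars (chr13:49682100-49734267) had 17.9 FPKM in 2K and 28.8 FPKM in 3K, against 38.3 FPKM in R, a difference of -1.08 for 2K and -0.40 for 3K. Qars had 119 FPKM in 2K, against 198 FPKM in R, a difference of -0.74, and 136 FPKM in 3K. Farsb, the beta subunit of the phenylalanyl enzyme, had 14.2 FPKM in 2K, against 23.7 FPKM in R, a difference of -0.72. The alpha subunit Farsa had 13.5 FPKM in 2K and 11.5 FPKM in R, so the 2 subunits of the same enzyme differed in sign. Nars, the asparaginyl enzyme, had 32.2 FPKM in 2K, against 53.4 FPKM in R, a difference of -0.72. Lars, the leucyl enzyme, was the cytosolic member at least 1.5-fold lower in 3K, with 11.1 FPKM against 19.0 FPKM in R.

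In all, 3 cytosolic and 1 mitochondrial member were at least 1.5-fold higher in 2K than in R (25.2% of all genes were), and 4 and 2 lower (24.7% of all genes). In 3K 3 cytosolic and 0 mitochondrial members were higher (22.9% of all genes) and 1 and 4 lower (23.9% of all genes). At least 2-fold apart were Vars above and Iars below R in 2K (14.7% and 14.1% of all genes), and in 3K Vars above R (11.6%) and 2 mitochondrial members, Rars2 among them, below it (13.4%). The cytosolic median was 0.04 in 2K and 0.17 in 3K, and the mitochondrial median -0.22 and -0.19, beside 0.02 and 0.00 for all genes. The 2 comparisons share R. The share of synthetases past the threshold was therefore not above that of genes in general.

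Of the 17 mitochondrial members, 10 were lower in 2K than in R (49.1% of all genes were) and 12 in 3K (49.8%). Rars2 (chr4:34614957-34660167), the mitochondrial arginyl enzyme, had 9.46 FPKM in 2K and 7.86 FPKM in 3K, against 16.9 FPKM in R, differences of -0.81 and -1.06. The other 6 libraries lay between 18.2 FPKM (C) and 24.4 FPKM (1K). Cars2, the cysteinyl enzyme, had 5.83 FPKM in 2K and 4.12 FPKM in 3K, against 8.29 FPKM in R, differences of -0.47 and -0.93. Pars2, the prolyl enzyme, was the mitochondrial member at least 1.5-fold higher in 2K, with 3.35 FPKM against 2.03 FPKM in R, and had 1.72 FPKM in 3K. Its 2K difference of 0.60 was under 1.5-fold after scaling (0.57) and with a pseudocount of 1 (0.52). The factors of mitochondrial translation and transfer RNA maturation, a list of 19 genes, had a median of 0.17 in 2K and -0.04 in 3K.

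**Figure D3:**
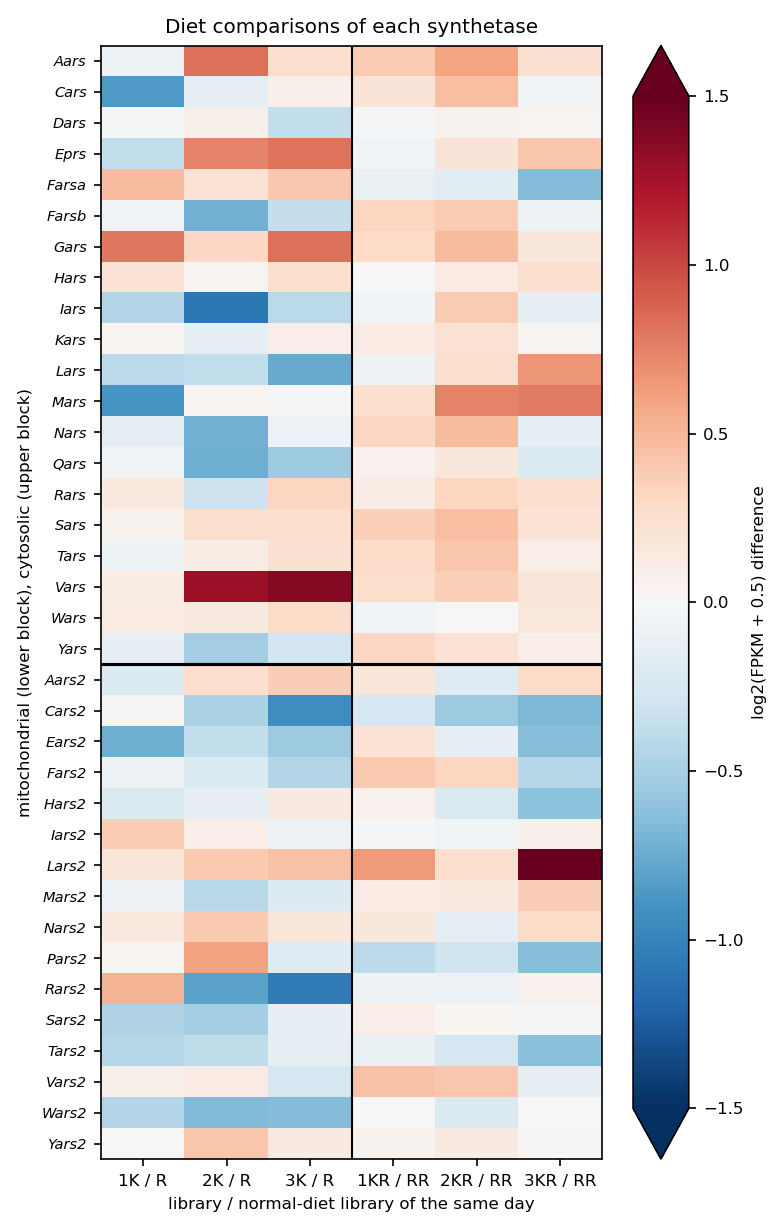
Log2(FPKM + 0.5) difference of each of 36 synthetases in the 6 diet comparisons, each against the normal-diet library of the same day, red where the first-named library is higher and blue where it is lower; the colour scale ends at 1.5 in both directions, which only Lars2 in 3KR (1.71) passes. Vars and Eprs are red in 2K and 3K, Rars2 is blue in both, and nearly the whole cytosolic block is pale red in 2KR.

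The refed library 2KR had the most uniform pattern of cytosolic enzymes. Of 20 cytosolic members, 19 were higher in 2KR than in RR, where 44.8% of all genes were, and Farsa alone was lower, at -0.16. After scaling 18 of 20 were higher (7279 of 17035 genes were). Of 17 mitochondrial members, 6 were higher. The cytosolic median was 0.34 and the mitochondrial median -0.09, beside -0.04 for all genes. The differences were small, with 2 cytosolic members at least 1.5-fold higher (5.78% of all genes were) and 0 members lower (8.66%). These were Mars, with 20.3 FPKM in 2KR against 11.9 FPKM in RR, a difference of 0.75, and Aars, with 19.2 FPKM against 12.6 FPKM, a difference of 0.59 (0.57 after scaling, which is under 1.5-fold).

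Nars had 80.7 FPKM in 2KR and 58.1 FPKM in RR, a difference of 0.47, and was highest of all libraries in 2KR. Cars had 22.2 FPKM in 2KR and 16.1 FPKM in RR, a difference of 0.45. The 5 members with the C/EBP-ATF core were all higher in 2KR than in RR, by 0.22 (Yars) to 0.59 (Aars), with a median of 0.42. Of the 8 other cytosolic members with a listed promoter, 7 were higher, with a median of 0.20 and a range of -0.16 to 0.75 that contains that of the holders.

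With C as the reference in place of RR, the cytosolic median of 2KR was 0.32. Acinar genes made up at most 0.038% of the summed FPKM in both libraries. Cell cycle genes were higher in 2KR than in RR for 15 of 15 list genes (44.8% of all genes were), with a median of 0.60. Ribosome biogenesis and growth genes were higher for 18 of 20, with a median of 0.18. In 1KR these lists were higher for 15 of 15 and 9 of 20 genes (48.7% of all genes), with medians of 0.39 and -0.05. In 3KR they were higher for 13 of 15 and 16 of 20 (51.9% of all genes), with medians of 0.36 and 0.38. The part of a larger share of dividing cells in the synthetase levels was not tested.

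Libraries 1KR and 3KR also had cytosolic medians above those of all genes. In 1KR 13 of 20 cytosolic and 11 of 17 mitochondrial members were higher than in RR (48.7% of all genes), with medians of 0.15 and 0.10 beside -0.01. The only member at least 1.5-fold higher was Lars2 (5.68% of all genes were), and 0 were lower (7.89%). In 3KR 14 of 20 cytosolic and 7 of 17 mitochondrial members were higher (51.9% of all genes), with medians of 0.13 and -0.03 beside 0.03. After scaling 16 and 9 were higher (10702 of 18263 genes were), with medians of 0.24 and 0.07 beside 0.14. Mars, by 0.76, and Lars, by 0.66, were at least 1.5-fold higher, and Farsa, at -0.65, was lower. Lars had 24.7 FPKM in 3KR, against 15.5 FPKM in RR. The 3 refed comparisons share RR.

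The largest difference of any member over the 12 comparisons was that of Lars2 in 3KR. Lars2 (chr9:123366927-123462666), the mitochondrial leucyl enzyme, had 76.3 FPKM in 3KR, against 23.1 FPKM in RR, a difference of 1.71. It had 36.1 FPKM in 1KR and 27.5 FPKM in 2KR, and 16.4 to 24.4 FPKM in the remaining libraries. Of mitochondrial members in 3KR it was the only one at least 1.5-fold higher (21.9% of all genes were), while 5 were lower (18.9% of all genes), Cars2 by the most, at -0.67. After scaling 0 of these 5 remained at least 1.5-fold lower, and Lars2 stayed higher. The 2 ribosomal RNAs encoded in mitochondria were also highest in 3KR, with 3152 FPKM for mt-Rnr1, against 1433 FPKM in RR, and 1141 FPKM for mt-Rnr2, against 496 FPKM in RR. Library 3KR had the smallest depth, the lowest enterocyte share (0.684% of summed FPKM, against 2.30% in RR) and more smooth muscle RNA (0.183%, against 0.122% in RR). The part of these features in the Lars2 value was not tested.

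**Figure D4:**
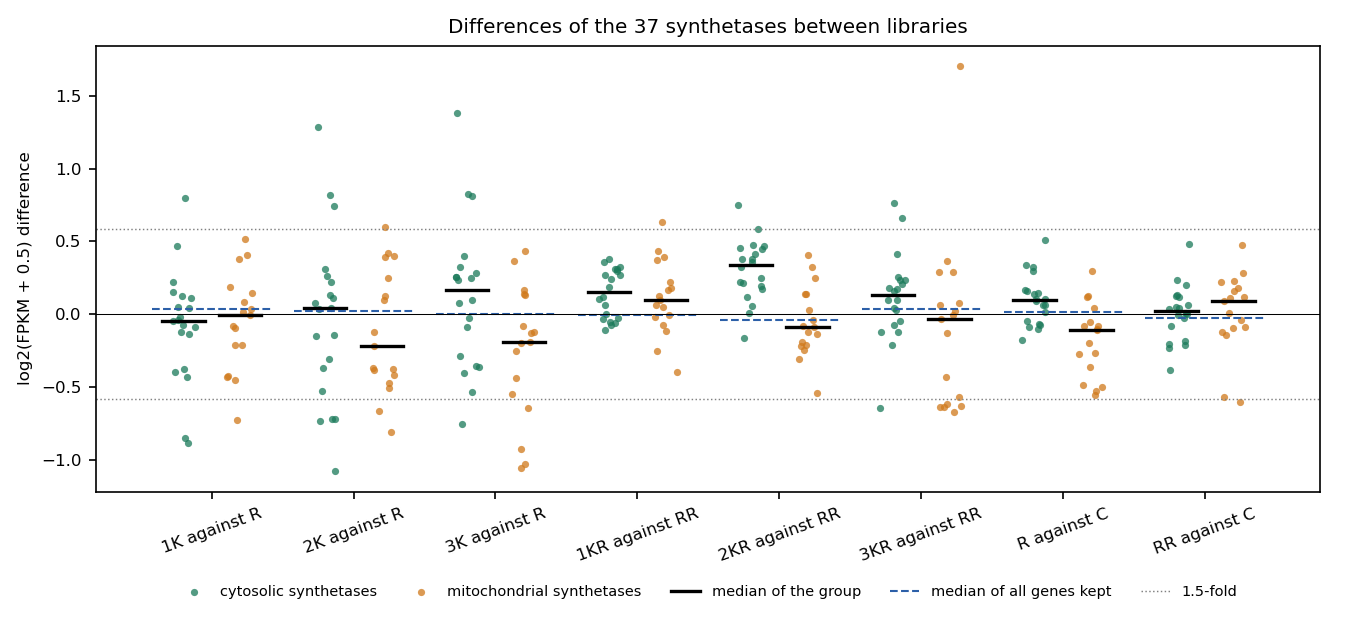
Log2(FPKM + 0.5) differences of the 20 cytosolic (green) and 17 mitochondrial (orange) synthetases in 8 comparisons of 2 libraries, with the median of each group as a black bar, the median of all genes kept as a dashed line and 1.5-fold as dotted lines. In 2KR against RR 19 of the 20 green points lie above 0, in 2K and 3K the spread is wide in both directions, and a lone orange point at 1.71 in 3KR is Lars2.

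Each refed library was also set against the deficient library of the same diet. Mitochondrial enzymes were higher for 14 of 17 members in 1KR than in 1K (43.6% of all genes were) and for 13 of 17 in 2KR than in 2K (45.6%). In 3KR 10 of 17 were higher than in 3K, near the 50.4% of all genes. The medians were 0.43, 0.21 and 0.24, beside -0.09, -0.10 and 0.01 for all genes. In RR the mitochondrial median was also higher than in R, by 0.22 beside -0.05 for all genes, so day 33 and the change of diet cannot be told apart within a diet arm. Rars2 had 18.6 FPKM in 2KR, against 9.46 FPKM in 2K, and 20.6 FPKM in 3KR, against 7.86 FPKM in 3K. Cars had the largest cytosolic difference between 1KR and 1K, with 18.4 FPKM in 1KR, against 8.09 FPKM in 1K, or 1.14. Vars was lower in both refed libraries, with 50.7 FPKM in 2KR, against 120 FPKM in 2K, and 44.8 FPKM in 3KR, against 129 FPKM in 3K.

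Over all diets, 2 cytosolic members (Dars and Kars) and 3 mitochondrial members (Cars2, Sars2 and Wars2) were above every day 28 library in every day 33 library, as were 2.53% of all genes. Wars and the mitochondrial Iars2 were below. After scaling, Cars2, Sars2 and Nars were above and Wars alone was below.

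DSS on the normal diet went with small differences. Against C, 0 of 37 members were at least 1.5-fold higher in R (9.99% of all genes were) and 0 lower (7.5%). In RR 0 were higher (14.5%) and 1 lower (14.8%), the mitochondrial valyl enzyme Vars2 with 8.06 FPKM in RR against 12.5 FPKM in C. Mars had 14.5 FPKM in R and 11.9 FPKM in RR, against 10.04 FPKM in C. The cytosolic and mitochondrial medians were 0.09 and -0.11 in R, beside 0.01 for all genes, and 0.02 and 0.09 in RR, beside -0.02. After scaling, those of RR were -0.08 and -0.00, beside -0.12. Of 17 mitochondrial members, 13 were lower in R than in C, as were 8825 of 18222 genes. Library C is of day 34, R of day 28 and RR of day 33, so DSS and day cannot be told apart here.

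The 8 members that belong to the multisynthetase complex (Eprs, Iars, Lars, Mars, Qars, Rars, Kars and Dars) differed in sign among themselves in the deficient libraries as deposited. Against R, 2 of 8 were higher in 1K (52.2% of all genes were), 3 in 2K (9689 of 19035 genes) and 3 in 3K (9471 of 18873 genes). After scaling, 0 of 8 were higher in 1K, so all 8 were lower there, as were 10996 of 18165 genes. In 2K and 3K, 2 and 3 were higher after scaling, as were 9289 and 9362 of all genes. Their median was -0.21 in 1K (-0.41 after scaling), -0.23 in 2K and -0.20 in 3K, with Eprs high and Iars, Lars and Qars low in 2K and 3K. In 2KR all 8 were higher than in RR (44.8% of all genes were), with a median of 0.23. Of the scaffolds, Aimp1 had 22.2 FPKM in 1K, 16.7 in 2K and 19.1 in 3K, against 14.3 in R. Aimp2 had 6.94 FPKM in 2K, against 12.8 FPKM in R, and 22.3 FPKM in 3KR, against 14.5 FPKM in RR. Eef1e1 lay between 4.27 FPKM (R) and 7.57 FPKM (3KR).

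The pathway upstream of the cytosolic synthetases was described by a list of amino acid response genes. In 2K 14 of its 32 genes kept were at least 2-fold higher than in R (14.7% of all genes were) and 2 lower (14.1%), with a median of 0.85. In 3K 10 of 32 were higher (11.6%) and 1 lower (13.4%), with a median of 0.46, and in 1K 2 of 31 were higher (7.17% of all genes) and 2 lower (8.63%), with a median of 0.11. Acinar genes made up 7.05% of all FPKM in 2K and 9.49% in 3K, and their part in these list values was not tested. The largest differences in 2K and 3K were those of Nupr1, a stress-induced chromatin protein, with 496 FPKM in 2K and 503 FPKM in 3K, against 39.9 FPKM in R. Atf4 had 67.3 FPKM in 1K, 92.3 in 2K and 91.1 in 3K, against 48.4 in R. Its level was highest in 1KR (128 FPKM) and 2KR (113 FPKM), against 74.2 FPKM in RR. Asns, the asparagine synthetase and a standard ATF4 target, had 50.7 FPKM in 2K and 62.8 FPKM in 3K, against 26.1 FPKM in R, and 24.7 FPKM in 2KR, against 20.3 FPKM in RR. Ddit3 ran the other way, with 6.78 FPKM in 2K and 6.40 FPKM in 3K, against 10.49 FPKM in R. At least 1.5-fold apart from R in 2K were 18 list genes above (25.2% of all genes) and 6 below (24.7%). In 3K 15 were above (22.9%) and 6 below (23.9%). The 5 synthetases with the C/EBP-ATF core had medians of -0.09 in 1K, 0.11 in 2K and 0.23 in 3K, and the other 8 had -0.03, 0.05 and 0.04. In 2K the holders ranged from -1.08 (Iars) to 0.82 (Aars), so holders of the core lay at both ends.

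Eif2ak4, the sensor kinase GCN2, had 2.55 FPKM in 1K, 8.25 in 2K and 10.7 in 3K, against 4.85 in R. Its differences were -0.81, 0.71 and 1.07. The ligand of GCN2 activation is the uncharged transfer RNA, which was not measured here.

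The 8 libraries with DSS were also fitted with a linear model (limma with a mean-variance trend) of day, methionine deficiency, tryptophan and niacin deficiency, and both diets by day. The error, on 2 residual degrees of freedom, is what the interaction of both diets leaves, which the model takes as 0. At a Benjamini-Hochberg adjusted p under 0.05 over 17577 genes, 0 of 37 members were called in any of the 4 diet terms. The share of all genes called was 0.188% for tryptophan and niacin deficiency at day 28 and 0% for each of the other 3 terms. At an unadjusted p under 0.05 there were 4 members for that term, beside 3380 genes, and 1 for earlier methionine deficiency at day 33, beside 218 genes. The other 2 terms had 0 members each, beside 563 genes for methionine at day 28 and 389 for tryptophan and niacin at day 33.

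The 4 members were Vars, with a coefficient of 1.28 (SE 0.25) and an adjusted p of 0.139 in limma, Rars2 with -1.19 (SE 0.28) and 0.166, Eprs with 0.96 (SE 0.25) and 0.174, and Cars2 with -0.71 (SE 0.24) and 0.236. Each coefficient sets 2K and 3K against 1K and R, so it carries the acinar transcripts of 2K and 3K described above. Lars2 had 1.04 (SE 0.29) for earlier methionine deficiency, with a limma adjusted p of 1. Mars had -0.47 (SE 0.29) for methionine deficiency at day 28, also with a limma adjusted p of 1, as for all 37 members in that term. Wars had 0.15 (SE 0.22) for tryptophan and niacin deficiency at day 28, with a limma adjusted p of 0.745.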

How the data were processed

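RNA from mouse intestinal tract was sequenced in 9 libraries, 1 per condition, after ribosomal RNA depletion and stranded library preparation without the bead step for poly(A) RNA, per the labels. HISAT2, Cuffdiff 2.2.1 and the build GRCm38 are named in the submitters' processing notes. The sources used here do not give the annotation, the strand setting of the counting or whether animals were pooled. The deposited table holds FPKM per gene and library, per the file headers. It holds no counts. Depth was estimated from the step between low values of genes with a single transcript of 1500 to 4000 bases. Between 77.9% and 82.3% of these values were within 0.15 of a whole fragment, so no count test was run. The largest depth was 31.1 M fragments (2KR) and the smallest 14.2 M (3KR). At 3 kb, 1 FPKM is 42.7 to 93.3 fragments.

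Values were compared as log2(FPKM + 0.5) in 12 pairs of libraries, keeping genes that reach 1 FPKM in either. The named genes were the methionyl and tryptophanyl enzymes, members at least 1.5-fold apart, the highest and lowest of a compartment, and up to 4 genes of a list with the largest difference; Nars, Farsa and Cars in some comparisons, Aars2, Atf4, Asns and Ddit3 were added after their values were seen. Members of the family and the 16 gene lists were chosen with earlier results of these data known. A linear model was fitted with limma 3.58.1 in R 4.3.3 to 17577 genes averaging 1 FPKM or more, without C, and was tested on simulated data. Alternatives were pseudocounts of 1 and 0.1, a floor of 5 FPKM or none, scaling by median-of-ratios factors (from 7809 genes that reach 5 FPKM in all libraries), a fit without trend or with diet effects common to both days, and leaving out each library. Coordinates and overlaps come from GENCODE M21 (GRCm38) and promoters from RefSeq (GRCm38.p6). Exons of 14 members overlap a gene on the other strand. 1 mitochondrial member is counted in every total but its own values are not reported here. The table uses the older symbols, such as Mars for Mars1.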

Additional observations from a re-analysis of the deposited data

How the results depend on the processing

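Each condition has 1 library, so values describe libraries and no spread between replicates exists. No paired analysis was possible because each condition has a single library. The 24 medians of cytosolic and mitochondrial members moved by at most 0.24 under 120 alternatives. Of these, 6 changed the sign of a median smaller than 0.1 in size, 5 by median-of-ratios scaling (2K against R and 3KR against 3K for cytosolic members, 3KR against RR for mitochondrial ones, and RR against C for both) and 1 by a floor of 5 FPKM (mitochondrial, 1K against R). Among 63 single-gene differences of at least 1.5-fold, 0 changed sign under 189 alternatives, which were other pseudocounts and median-of-ratios scaling. This outcome was fixed beforehand and says nothing about stability. A pseudocount cannot change which library is higher, and the scaling factors of all libraries lie less than 1.5-fold apart. Counts of members at least 1.5-fold apart could move, and some did. Those given here changed by more than 1.5-fold, or to or from 0. Others changed by no more than that, as did higher members in 2K against R, 3 with a pseudocount of 1 in place of 4. Under median-of-ratios scaling, lower members in 1K against R numbered 8 in place of 3, and lower genes 4353 in place of 3263. Lower members in 3KR against RR numbered 0 in place of 6, and lower genes 2852 in place of 3453. Higher members in 2KR against RR numbered 1 in place of 2, and higher genes 949 in place of 984. Lower members in RR against C numbered 2 in place of 1, and lower genes 3301 in place of 2668. With a pseudocount of 1, higher members in 2KR against RR numbered 1 and lower members in RR against C 0. With a pseudocount of 0.1, lower members numbered 1 in R against C and 2 in RR against C. With a floor of 5 FPKM, 3 members were higher in 1KR than in 1K in place of 6, since fewer were kept. Genes called for tryptophan and niacin deficiency at day 28 numbered 33, and 20 with a mean of at least 5 FPKM, 67 without trend, 1 with a single effect for both days and 0 to 0 when any 1 library was left out, where 1 residual degree of freedom remained. That 1 gene is also the count set beside the 0 of day 33, since this fit has no term for a single day. With C in place of R or RR, chosen after seeing the data, the cytosolic medians were 0.05 (1K), 0.09 (2K), 0.35 (3K), 0.23 (1KR), 0.32 (2KR) and 0.15 (3KR), and the mitochondrial ones -0.28, -0.27, -0.28, 0.04, -0.06 and -0.28. Members of low FPKM and short transcripts rest on the fewest fragments.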

Other observations

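Genes that act beside the synthetases on transfer RNA also differed among libraries. Xpot, the exportin that carries transfer RNA out of the nucleus, had 33.9 FPKM in 1K, 21.7 in 2K and 18.7 in 3K, against 17.4 in R, and its highest value of all 9 libraries was that in 1K. Dtd2 encodes an enzyme that clears mischarged transfer RNA. It had 4.04 FPKM in 1K and 3.51 FPKM in 2K, against 1.96 FPKM in R. Dtd1, a D-aminoacyl-tRNA deacylase, had 5.11 FPKM in 3K, against 2.46 FPKM in R, and 5.70 FPKM in 3KR, against 2.78 FPKM in RR.

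Mitochondria lack a glutaminyl enzyme and make glutaminyl-tRNA from the product of Ears2 with the GatCAB amidotransferase, whose B subunit is encoded by Gatb. Gatb had 2.09 FPKM in 3K, against 4.03 FPKM in R, and 3.09 FPKM in 3KR, against 5.93 FPKM in RR. Ears2 was lower in the same libraries, with 2.08 FPKM in 3K, against 3.27 FPKM in R, and 1.82 FPKM in 3KR, against 3.10 FPKM in RR. Its difference was under 1.5-fold in 3K (-0.54) and, after scaling, in 3KR (-0.54). Ears2 was not low in these libraries alone, with 1.77 FPKM in 1K and 2.41 FPKM in 2K. Over the 13 kept genes of the list of synthetase relatives and proofreading enzymes, the median difference lay between -0.12 (2KR against RR) and 0.19 (1K against R) in the 6 diet comparisons.

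In 2KR, 23 of 28 genes of the interferon response list were higher than in RR (44.8% of all genes were), their median being 0.42. Eif2ak2, the interferon-induced eIF2 kinase PKR, had 28.9 FPKM in 2KR, against 13.1 FPKM in RR. Wars had 26.8 FPKM in 2KR and 26.7 FPKM in RR, so it did not follow them. The rise of the list was not particular to 2KR. In 1KR 26 of 28 list genes were higher than in RR (48.7% of all genes were), with a median of 0.36. In 3KR 5 of 26 kept genes were higher (51.9% of all genes), with a median of -0.93.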
